A study of Rattus norvegicus with 10 samples.

Results

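Cadherins and protocadherins were followed in the hippocampus of injured and sham-operated rats. A row of the FPKM table counted as a member when its gene symbol begins with Cdh and a digit or with Pcdh, in a row of several names when every name does, and the endothelial gene Cdh5 was left out. These were 45 of 25269 rows, with 67 gene names, and summing rows with the same symbol gave 41 features of 23824. Of the 41, 32 had a mean of at least 0.5 FPKM over all libraries and were tested, 8 lay below that level, and Cdh16 was listed at 0 in every library. The study measured poly-A RNA of the hippocampus by RNA sequencing 1 week after surgery, in 5 libraries of TBI rats and 5 libraries of sham rats. The TBI group had a traumatic brain injury by fluid percussion, a pressure pulse of fluid onto the exposed dura, and the sham group had sham surgery. Both groups were male Sprague Dawley rats of 200 to 240 g, an outbred strain, with no altered gene, and both took a learning test before the tissue was collected. The labels give neither the animals' age nor the injured side, and do not say whether each library is a separate animal, so a p-value here covers only the spread among the libraries at hand, which may be technical.

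Cadherins are membrane proteins that bind the like protein on a neighbouring cell in the presence of calcium. Classical cadherins of type I and type II reach the actin skeleton through catenins and hold adherens junctions and synapses together. Protocadherins lack the catenin-binding tail. The solitary delta protocadherins guide axon growth and synapse remodelling, and the clustered alpha, beta and gamma protocadherins are chosen in different combinations by single neurons, which lets a neuron tell its own branches from those of others. In the hippocampus, N-cadherin and several type II cadherins are known from the synapses of mossy fibres and pyramidal cells.

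The labelled tissue was checked first. None of 6 markers of hippocampal neurons was at 0 (Slc17a7, Camk2a, Neurod6, Prox1, Gad1 and Neurod2), and their summed level ran from 1445 to 3110 FPKM in TBI libraries and from 2181 to 3395 FPKM in sham libraries. TBI 1 stood apart with the lowest neuronal sum and with the highest choroid plexus sum, 34325 FPKM, and the highest matrix and meninges sum, 1045 FPKM. It was the lowest of the 10 libraries for 16 of the 32 tested members, and for 28.6% of all 16194 features tested. TBI 1 was the highest library for 6 members, 18.8% of them, against 22.1% of all features. In a bulk sample, fewer cells of a type and less RNA per cell cannot be told apart. The number of reads behind the values is unknown, so precision comes from the spread between libraries.

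Protocadherins made up most of the family's summed FPKM in the hippocampus. FPKM is scaled to transcript length, so levels of rows with a single gene can be set beside each other. The row of the gamma cluster pools 13 gene names and that of the alpha cluster 15, so these levels are not those of single genes. The summed level of the 23 protocadherin features averaged 387 ± 52.0 FPKM in TBI and 401 ± 25.8 FPKM in sham (SD, n = 5 each), and that of the 18 cadherin features averaged 149 ± 2.81 FPKM in TBI and 147 ± 5.52 FPKM in sham. The cadherin sum differed little among libraries, at 138 to 153 FPKM over all 10. The protocadherin sum was 299 FPKM in TBI 1 and between 362 and 434 FPKM in the other 9 libraries. The row of the gamma cluster alone held 36.4% of the family's sum, and 14 features had a mean of at least 10 FPKM.

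**Figure D1:**
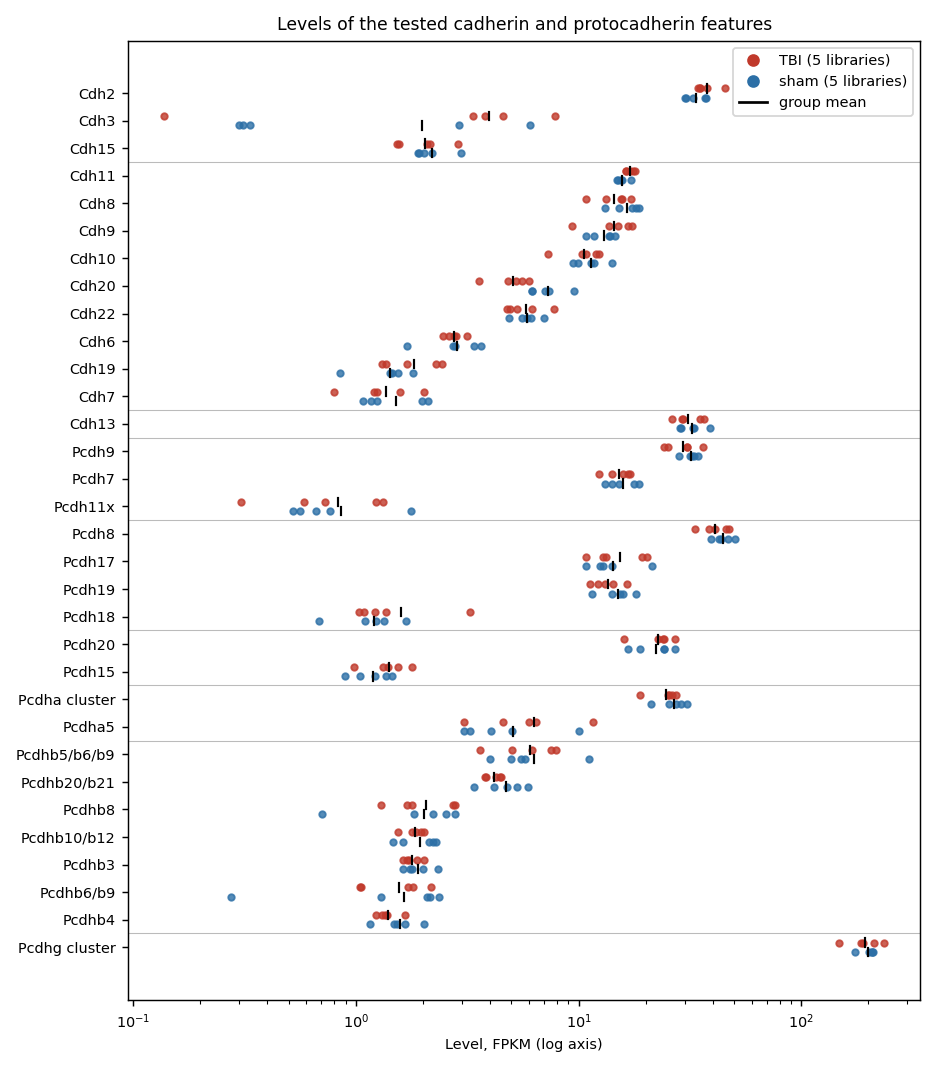
Level of each of the 32 tested features in FPKM on a log axis, with 1 point per library, TBI above sham, and a black tick at each group's mean. Groups overlap in every feature except Cdh20, where the highest TBI library is at 6.02 FPKM and the lowest sham library at 6.15 FPKM, and the Cdh3 points spread from 0.138 to 7.88 FPKM.

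The comparison of TBI with sham asks which members differ in level 1 week after the injury. No member passed the test with limma once its p was adjusted by Benjamini-Hochberg across all 16194 features, and the smallest adjusted p of a member was 0.983. Over all features 0% passed too, with a smallest adjusted p of 0.698. At an unadjusted p under 0.05 there was 1 member, Cdh20, of 32 tested (3.13%), against 2.91% of all features. Cdh20 was also the only tested member whose groups did not overlap, against 0.482% of all features. An exact permutation test of each feature, with a smallest possible p of 0.00794, gave an unadjusted p under 0.05 for 2 members, Cdh20 and Cdh11, against 3.51% of all features, and 0 features passed it after adjustment. The count of a single member is too small to be read against these shares.

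On the scale of the test, log2(FPKM + 0.5), the members' mean was higher after TBI in 12 and lower in 20 of the 32, so 37.5% were higher, against 50.4% of all features. Counts of features higher or lower are on this scale throughout. The row Pcdhb6/b9 counts as higher although its FPKM averaged 1.56 in TBI and 1.64 in sham. Their median log2 difference, TBI minus sham, was -0.04, against 0.0013 over all features. Without TBI 1 the median was 0.0021, with 18 of 33 members higher. For that fit the share over all features was not taken, so this count has none to be read against. The 95% interval of the difference had a median half-width of 0.34 among members and 0.32 among all features. It lay wholly within 1 log2 unit either way for 30 members, and Cdh3 and Pcdha5 were the exceptions.

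**Figure D2:**
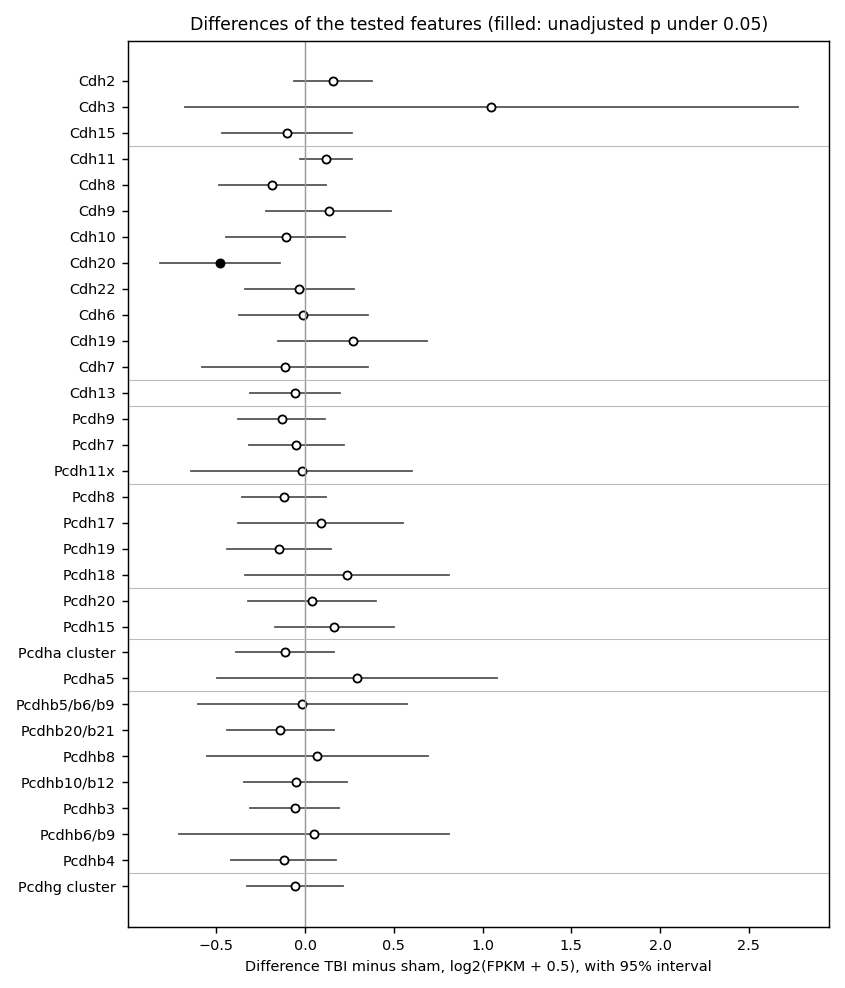
Difference TBI minus sham of the 32 tested features on log2(FPKM + 0.5), with 95% intervals from limma, ordered by subfamily as separated by grey lines. Only the interval of Cdh20, from -0.82 to -0.14, lies wholly on one side of 0, and that of Cdh3 is the widest, from -0.68 to 2.78.

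**Figure D3:**
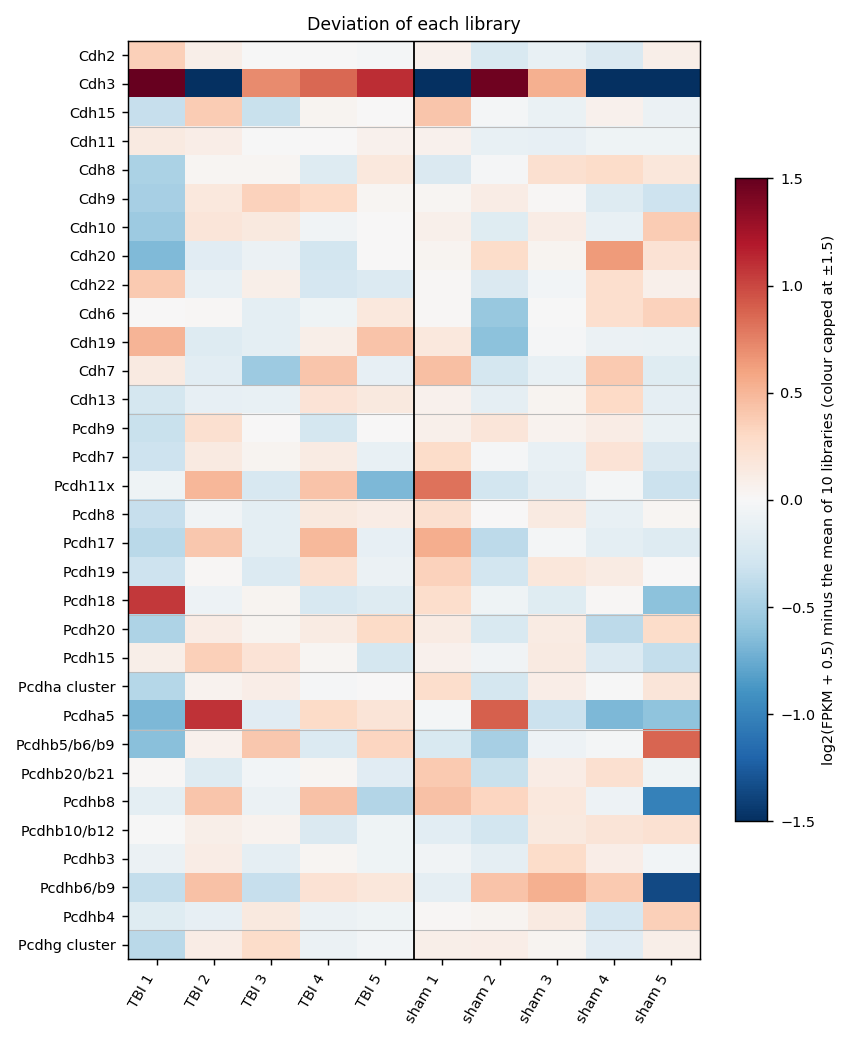
Deviation of each library from the 10-library mean of a feature on log2(FPKM + 0.5), with red for higher and blue for lower, TBI libraries left of the line and sham libraries right of it. The column of TBI 1 is lowest for 16 of the 32 features, and the row of Cdh3 has the strongest colours.

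Among the type I classical cadherins, N-cadherin (Cdh2), the main cadherin of excitatory synapses, was the most abundant. Cdh2 stood at 45.3, 37.6, 35.2, 35.2 and 34.5 FPKM in TBI 1 to TBI 5, against 37.0, 30.2, 32.8, 30.5 and 37.5 FPKM in sham 1 to sham 5. TBI 1 was the highest library, TBI 2 lay just above the highest sham library and the other 3 TBI libraries inside the sham range, and each of the 5 TBI libraries exceeded the mean of sham in log2 units. The log2 difference was 0.16 (SE 0.10, unadjusted p = 0.140 and adjusted p = 0.983 in limma's test), and 0.09 without TBI 1. M-cadherin (Cdh15), known from muscle, was at 2.04 ± 0.549 FPKM in TBI and 2.21 ± 0.435 FPKM in sham (SD, n = 5 each).

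P-cadherin (Cdh3), an epithelial cadherin, had the widest spread of the tested members. It stood at 7.88, 0.138, 3.38, 3.81 and 4.59 FPKM in TBI 1 to TBI 5, against 0.312, 6.02, 2.91, 0.298 and 0.334 FPKM in sham 1 to sham 5. The low values were those of TBI 2, sham 1, sham 4 and sham 5, and the groups overlapped over nearly their whole range. The log2 difference of 1.05 had an interval from -0.68 to 2.78 (unadjusted p = 0.208, adjusted p = 0.983 in limma's test), and it was 1.65 without TBI 2. Choroid plexus markers moved with it: the sum of the 11 listed markers that the table holds was 34325, 148, 9762, 12684.5 and 18810 FPKM in TBI 1 to TBI 5 and 103, 32780, 10111, 145 and 513 FPKM in sham 1 to sham 5. Of the 10 markers tested, 10 had a higher mean after TBI, and Otx2 was at 0 in TBI 2, sham 1, sham 3, sham 4 and sham 5. With the choroid plexus score as covariate the log2 difference of Cdh3 was -0.02 (unadjusted p = 0.911). The part of these markers in the Cdh3 values was not tested beyond that fit.

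E-cadherin (Cdh1), the cadherin of most epithelia, had a mean below the level for testing and is described because of its pattern, seen in the values. It stood at 1.18, 0.147, 0.1002, 0.250 and 0.210 FPKM in TBI 1 to TBI 5, against 0.211, 0.516, 0.109, 1.73 and 0.0699 FPKM in sham 1 to sham 5. The highest 3 libraries were sham 4, TBI 1 and sham 2. Those were also the 3 libraries with the highest sums of the 14 matrix and meninges markers, at 1045 FPKM in TBI 1, 924 FPKM in sham 2 and 627 FPKM in sham 4. In the other libraries that sum was 61.6 to 415 FPKM in TBI and 57.2 to 252 FPKM in sham. Igf2 and Igfbp2 led the sum, at 445 and 326 FPKM in TBI 1, 377 and 350 FPKM in sham 2 and 244 and 137 FPKM in sham 4. Col1a1, a smaller part of it, was at 30.5, 20.3 and 34.3 FPKM in TBI 1, sham 2 and sham 4 and at most 3.54 FPKM elsewhere. Of the 12 markers tested, 6 had a higher mean after TBI, and the marker Col1a2 was listed at 0 in every library. The part of these markers in the Cdh1 values was not tested.

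**Figure D4:**
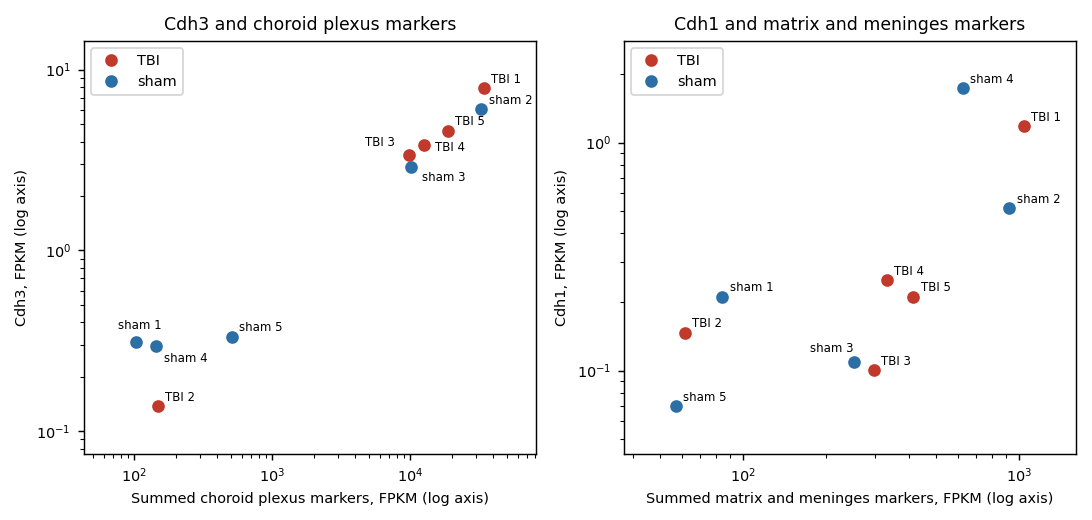
Cdh3 against the summed choroid plexus markers (left) and Cdh1 against the summed matrix and meninges markers (right), all in FPKM on log axes, with 1 labelled point per library. Cdh3 is at or below 0.334 FPKM in the 4 libraries with a choroid plexus sum of at most 513 FPKM and at or above 2.91 FPKM in the other 6, and Cdh1 is highest in sham 4, TBI 1 and sham 2.

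Type II classical cadherins sort brain regions and synaptic partners, and 9 were measured, all of them tested. The log2 differences ran from -0.48 to 0.27, with 3 higher and 6 lower after TBI. Cdh20, known in mouse from region-restricted expression in the developing brain, had the lowest of them. It stood at 3.59, 5.27, 5.59, 4.85 and 6.02 FPKM in TBI 1 to TBI 5, against 6.15, 7.34, 6.16, 9.59 and 7.04 FPKM in sham 1 to sham 5. Every TBI library lay below every sham library, though TBI 5, sham 1 and sham 3 were close together. The mean was 5.06 ± 0.929 FPKM in TBI and 7.26 ± 1.41 FPKM in sham (SD, n = 5 each), a log2 difference of -0.48 (SE 0.15, 95% interval -0.82 to -0.14). The unadjusted p was 0.00975 and the adjusted p 0.983 in limma's test, so the difference did not pass adjustment, and the exact permutation p of 0.00794 was the smallest that test can give.

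The Cdh20 difference kept its sign in each of the 26 alternatives and did not pass adjustment in any, with unadjusted p from 0.00733 to 0.0295. As every TBI value lies below every sham value, the pseudocount, the filter, the test or the libraries kept could not change the sign. The difference was -0.27 without TBI 1 and sham 4, the lowest and highest libraries of Cdh20, which were picked for their values. Some marker lists had mostly lower members after TBI, and 3 of those are set out here. Other lists had mostly higher members: 5 of 5 tested microglia markers, 5 of 6 for oligodendrocytes, 2 of 2 for their precursors, 4 of 4 for ependyma and 10 of 10 for choroid plexus. The sum of the 6 endothelial markers that the table holds was 95.8, 85.0, 77.6, 77.1 and 83.3 FPKM in TBI 1 to TBI 5, against 94.2, 110, 99.0, 135 and 109 FPKM in sham 1 to sham 5. Of these 6, 5 had a lower mean after TBI, 2 with an unadjusted p under 0.05 and 0 after adjustment, and none was at 0. Over all features 2.91% had an unadjusted p under 0.05 in limma's test and 50.4% had a higher mean. Within the TBI group the endothelial sum was highest in TBI 1, where Cdh20 was lowest. Within the sham group it had the same order as Cdh20, from sham 1, the lowest, to sham 4, the highest of all libraries in both. The sum of the 4 dentate gyrus markers that the table holds was 79.1, 91.6, 92.6, 109.6 and 142 FPKM in TBI 1 to TBI 5, against 71.2, 126, 170.3, 175 and 128 FPKM in sham 1 to sham 5. It was lowest among TBI libraries in TBI 1 and highest of all in sham 4, as Cdh20 was, while its lowest library was sham 1. All 3 of these markers that were tested had a lower mean after TBI, 0 with an unadjusted p under 0.05, and Tdo2, which was not tested, was at or near 0. Of the 6 markers of hippocampal neurons 5 had a lower mean after TBI, 0 with an unadjusted p under 0.05. The part of these lists in the Cdh20 values was not tested.

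Cdh11, a cadherin of mesenchyme that is also found at hippocampal synapses in mouse, was the steadiest. It stood at 17.9, 17.5, 16.3, 16.3 and 17.1 FPKM in TBI 1 to TBI 5, against 17.1, 15.1, 14.9, 15.5 and 15.6 FPKM in sham 1 to sham 5. Sham 1 was the only sham library to reach into the TBI range. The log2 difference was 0.12 (SE 0.07, 95% interval -0.03 to 0.26, unadjusted p = 0.0992, adjusted p = 0.983 in limma's test), and the two-sided exact permutation p was 0.0476, unadjusted.

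Of the remaining type II cadherins, Cdh8, Cdh9 and Cdh10 were the most abundant, and TBI 1 was the lowest library for each of these 3. Cdh8, which marks defined neuronal circuits, averaged 14.5 ± 2.44 FPKM in TBI and 16.5 ± 2.32 FPKM in sham (log2 difference -0.18). Cdh9, needed in mouse for synapses between mossy fibres and CA3 cells, averaged 14.5 ± 3.17 FPKM in TBI and 13.0 ± 1.60 FPKM in sham (log2 difference 0.13). Cdh10, which in mouse acts with Cdh6 at synapses onto CA1 cells, averaged 10.6 ± 1.999 FPKM in TBI and 11.4 ± 1.85 FPKM in sham, and Cdh6 averaged 2.76 ± 0.257 FPKM in TBI and 2.85 ± 0.748 FPKM in sham. Cdh22, Cdh19, known from cells of the Schwann lineage, and Cdh7 averaged 5.84, 1.62 and 1.44 FPKM over all libraries. Their log2 differences were -0.03, 0.27 and -0.11, and each 95% interval included 0.

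Of the other cadherins only T-cadherin (Cdh13), which is anchored by a lipid and has no cytoplasmic tail, was at a level that was tested. Cdh13 stood at 26.2, 29.0, 29.3, 36.4 and 34.9 FPKM in TBI 1 to TBI 5, against 33.1, 28.6, 32.6, 39.0 and 28.8 FPKM in sham 1 to sham 5. The groups covered almost the same range, and the log2 difference was -0.06 (SE 0.12, adjusted p = 0.983 in limma's test), with the sign changed without TBI 1 or without sham 4. Cdh23, which with Pcdh15 forms the tip links of inner ear hair cells, was at 1.01 FPKM in TBI 1 and at 0.211 to 0.501 FPKM in the other 9 libraries. Cdh17, the cadherin of liver and intestine, was at 0.790 FPKM in TBI 1 and at most 0.106 FPKM elsewhere. Both were picked for TBI 1 after their values were seen. Cdh26 averaged 0.0360 FPKM.

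Delta-1 protocadherins carry an added conserved tail motif that binds protein phosphatase, and 3 were measured. Pcdh9 stood at 24.1, 36.2, 30.7, 25.3 and 30.6 FPKM in TBI 1 to TBI 5, against 32.2, 34.5, 31.7, 33.0 and 28.4 FPKM in sham 1 to sham 5. TBI 1 and TBI 4 were below all sham libraries and TBI 2 above them, with a log2 difference of -0.13 (SE 0.11, adjusted p = 0.983 in limma's test). The difference was -0.065 without TBI 1, -0.082 without TBI 4 and -0.21 without TBI 2. The X-linked Pcdh11x stood at 0.726, 1.32, 0.588, 1.23 and 0.305 FPKM in TBI 1 to TBI 5, against 1.76, 0.562, 0.666, 0.763 and 0.524 FPKM in sham 1 to sham 5. Sham 1 was far above the other sham libraries, and the log2 difference of -0.02 had an interval from -0.64 to 0.60. Its sign changed without TBI 3, without TBI 5 or without sham 1. Pcdh7 averaged 15.2 ± 1.96 FPKM in TBI and 15.8 ± 2.35 FPKM in sham (SD, n = 5 each).

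Among the delta-2 protocadherins, Pcdh8, known in rat as arcadlin, is induced by neuronal activity and draws N-cadherin off the synapse surface. Pcdh8 stood at 33.3, 40.9, 38.4, 47.2 and 46.1 FPKM in TBI 1 to TBI 5, against 50.5, 42.7, 46.7, 39.5 and 43.6 FPKM in sham 1 to sham 5. TBI 1 and TBI 3 were below every sham library, and the log2 difference was -0.12 (SE 0.11, 95% interval -0.36 to 0.12, adjusted p = 0.983 in limma's test). It was -0.047 without TBI 1, -0.075 without sham 1 and -0.0018 without both. Pcdh17, which organizes presynaptic vesicles in mouse, averaged 15.3 ± 4.21 FPKM in TBI and 14.3 ± 4.07 FPKM in sham. Pcdh19, whose human gene is mutated in an epilepsy that affects mainly girls, averaged 13.5 ± 2.05 FPKM in TBI and 15.03 ± 2.41 FPKM in sham. Pcdh18 was at 3.27 FPKM in TBI 1 and at 0.681 to 1.67 FPKM in the other 9 libraries, picked after its values were seen, with a log2 difference of 0.24 (95% interval -0.34 to 0.81).

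Of the other solitary protocadherins, Pcdh20 stood at 15.9, 23.9, 22.8, 24.3 and 27.2 FPKM in TBI 1 to TBI 5, against 24.3, 18.9, 24.2, 16.7 and 27.0 FPKM in sham 1 to sham 5. Both groups ran from about the same lowest to the same highest level, with a log2 difference of 0.04 (SE 0.16) whose sign changed without TBI 5, without sham 2 or without sham 4. Pcdh15 averaged 1.41 ± 0.299 FPKM in TBI and 1.196 ± 0.230 FPKM in sham, and Pcdh12, a protocadherin of endothelium, 0.305 ± 0.0857 FPKM in TBI and 0.273 ± 0.0493 FPKM in sham.

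The clustered protocadherins lie in 3 tandem arrays, and in the alpha and gamma arrays each variable first exon is spliced to shared constant exons. The table accordingly gives 1 row to 15 alpha names and 1 row to 13 gamma names, so single alpha or gamma isoforms were not resolved there. The gamma cluster (Pcdhg) stood at 148, 211, 236, 185 and 190 FPKM in TBI 1 to TBI 5, against 207, 210, 202, 174 and 208 FPKM in sham 1 to sham 5. TBI 1 was the lowest and TBI 3 the highest of all libraries, and sham 4 was the lowest of the sham libraries. The log2 difference was -0.06 (SE 0.12, 95% interval -0.33 to 0.21, adjusted p = 0.983 in limma's test), and it was 0.03 without TBI 1.

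The alpha cluster (Pcdha) stood at 18.9, 26.3, 27.3, 25.2 and 25.6 FPKM in TBI 1 to TBI 5, against 30.7, 21.1, 27.3, 25.4 and 29.0 FPKM in sham 1 to sham 5. TBI 1 was again the lowest library, and the other TBI libraries lay inside the sham range, with a log2 difference of -0.11 (SE 0.12, adjusted p = 0.983 in limma's test). It was -0.021 without TBI 1, -0.059 without sham 1 and -0.19 without sham 2. A separate row named Pcdha5 stood at 3.05, 11.6, 4.56, 6.41 and 5.999 FPKM in TBI 1 to TBI 5, against 5.04, 10.1, 4.03, 3.06 and 3.25 FPKM in sham 1 to sham 5. TBI 2 and sham 2 were well above the other libraries of their groups. The log2 difference of 0.29 had an interval from -0.50 to 1.08, and it was 0.06 without TBI 2 and 0.55 without sham 2.

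The beta protocadherins are single-exon genes, each with a promoter of its own. RefSeq promoters of the GRCr8 assembly, 250 bases before to 50 bases after the gene's start, were matched by symbol for 43 of the family's 67 gene names. The run GGCGCTGC, searched on both strands and chosen after the sequences were seen, was in 8 of the 11 matched beta promoters (72.7%), in 0 of 12 gamma promoters and in 2.39% of 33469 promoters. It contains CGCT, the core of an element described in clustered protocadherin promoters, which was in 11 of 11 beta promoters, 11 of 12 gamma promoters and 60.9% of all. The promoters of Pcdhb5, Pcdhb6, Pcdhb8 and Pcdhb9 are shown because those names label the 3 tested beta rows with the widest residual SD. Among rows that were not tested, Pcdhb2 and Pcdhb12 also differed widely between libraries. The promoters of Pcdhb5, Pcdhb6, Pcdhb8 and Pcdhb9 lie on the plus strand of GRCr8 at chr18:29302216-29302515, chr18:29320141-29320440, chr18:29339226-29339525 and chr18:29379060-29379359 in this order, and capitals mark GGCGCTGC.
Pcdhb5: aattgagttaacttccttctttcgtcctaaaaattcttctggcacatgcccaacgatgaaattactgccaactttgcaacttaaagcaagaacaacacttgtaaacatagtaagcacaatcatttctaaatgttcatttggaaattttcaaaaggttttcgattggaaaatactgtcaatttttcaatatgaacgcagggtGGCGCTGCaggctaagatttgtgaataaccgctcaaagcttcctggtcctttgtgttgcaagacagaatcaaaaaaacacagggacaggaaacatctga
Pcdhb6: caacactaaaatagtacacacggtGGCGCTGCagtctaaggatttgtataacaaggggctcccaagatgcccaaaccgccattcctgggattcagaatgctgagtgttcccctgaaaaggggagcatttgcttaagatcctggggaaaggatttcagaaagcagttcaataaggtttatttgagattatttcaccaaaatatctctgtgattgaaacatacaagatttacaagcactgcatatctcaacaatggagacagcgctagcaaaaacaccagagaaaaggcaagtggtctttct
Pcdhb8: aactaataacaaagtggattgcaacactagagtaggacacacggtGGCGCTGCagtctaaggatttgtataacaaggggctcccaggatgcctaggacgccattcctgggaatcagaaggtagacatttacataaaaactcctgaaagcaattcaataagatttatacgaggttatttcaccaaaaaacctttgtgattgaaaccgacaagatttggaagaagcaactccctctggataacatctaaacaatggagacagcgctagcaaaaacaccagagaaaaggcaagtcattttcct
Pcdhb9: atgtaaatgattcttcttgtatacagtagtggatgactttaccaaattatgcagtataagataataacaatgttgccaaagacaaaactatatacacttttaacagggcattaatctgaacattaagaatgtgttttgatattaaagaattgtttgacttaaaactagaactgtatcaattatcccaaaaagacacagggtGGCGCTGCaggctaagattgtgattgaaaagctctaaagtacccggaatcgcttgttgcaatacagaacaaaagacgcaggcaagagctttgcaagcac

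In a global alignment the Pcdhb6 and Pcdhb8 promoters were identical at 233 of 335 columns (69.6%). Those of Pcdhb5 and Pcdhb9 were identical at 211 of 340 (62.1%), and the other 4 pairings reached at most 53.0%. GGCGCTGC lay 49 bases before the gene's start in Pcdhb5 and Pcdhb9, 226 in Pcdhb6 and 205 in Pcdhb8. In those 4 pairings the windows were thus displaced relative to this run, so their lower identity does not show that the promoters differ. Each window also runs past the gene's start, where Pcdhb6 and Pcdhb8 read atg. From that atg both read on in frame, without a stop codon, to the end of the window. Their 69.6% therefore includes bases that read as coding sequence, though no protein sequence was compared. Pcdhb5 and Pcdhb9 have no atg at the gene's start. The distances of 226 and 205 bases are thus counted from an atg and that of 49 bases is not, so they are not like measures. Pcdhb6 and Pcdhb9 are each named in more than 1 row of the table, and near copies can share reads, so the division of reads among these rows is uncertain.

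Of the 10 beta features, 7 were tested, with 2 higher and 5 lower after TBI and log2 differences from -0.14 to 0.07. The row named Pcdhb5, Pcdhb6 and Pcdhb9 stood at 3.62, 6.15, 7.95, 5.03 and 7.50 FPKM in TBI 1 to TBI 5, against 4.96, 4.003, 5.53, 5.74 and 11.2 FPKM in sham 1 to sham 5. Pcdhb8 stood at 1.70, 2.74, 1.79, 2.79 and 1.30 FPKM in TBI 1 to TBI 5, against 2.80, 2.55, 2.22, 1.82 and 0.704 FPKM in sham 1 to sham 5. Sham 5 was the highest library in the first of these rows and the lowest in Pcdhb8, and TBI 5 was the next lowest in Pcdhb8.

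The row named Pcdhb6 and Pcdhb9 stood at 1.05, 2.17, 1.06, 1.80 and 1.72 FPKM in TBI 1 to TBI 5, against 1.30, 2.15, 2.36, 2.09 and 0.276 FPKM in sham 1 to sham 5. The row named Pcdhb6 alone, picked after its values were seen, stood at 0.182, 0.238, 0.914, 0.421 and 0.954 FPKM in TBI 1 to TBI 5, against 0.390, 0.125, 0.172, 0.232 and 1.36 FPKM in sham 1 to sham 5. The ratio of Pcdhb6 to Pcdhb8 was therefore 1.93 in sham 5, 0.735 in TBI 5 and 0.512 in TBI 3, and 0.0489 to 0.151 in the other 7 libraries. These libraries with high ratios come from both groups. The sum of all 10 beta features ran from 16.4 to 22.1 FPKM in TBI libraries and from 17.5 to 24.7 FPKM in sham libraries.

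**Figure D5:**
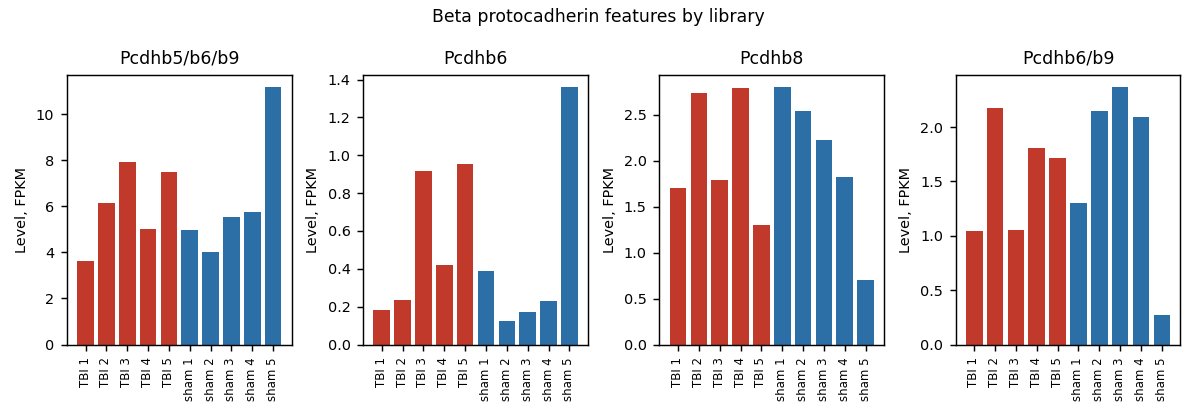
Level in FPKM of 4 beta protocadherin features in each library, TBI in red and sham in blue, with a scale of its own in each panel. Sham 5 is highest in Pcdhb5/b6/b9, at 11.2 FPKM, and in Pcdhb6, at 1.36 FPKM, and lowest in Pcdhb8, at 0.704 FPKM, and in Pcdhb6/b9, at 0.276 FPKM.

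The group differences of these rows were small beside that spread between libraries. The log2 difference was -0.02 (95% interval -0.60 to 0.57) for Pcdhb5/b6/b9, 0.07 (-0.55 to 0.69) for Pcdhb8 and 0.05 (-0.71 to 0.81) for Pcdhb6/b9, and each changed sign without sham 5. The sign also changed without TBI 1 or TBI 4 for Pcdhb5/b6/b9, without TBI 2 or TBI 4 for Pcdhb8 and without TBI 2 for Pcdhb6/b9. The other tested beta features, Pcdhb3, Pcdhb4, Pcdhb10/b12 and Pcdhb20/b21, had means of 1.48 to 4.44 FPKM and log2 differences of -0.05 to -0.14. Pcdhb2 and Pcdhb12 had means of 0.427 and 0.344 FPKM and were not tested.

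Genes that work with cadherins but are not of the family were read from 4 lists. Of their 41 tested genes 0 had an unadjusted p under 0.05 in limma's test, against 2.91% of all features. With so few genes that count is too small to be read against this share. Over all features 50.4% had a higher mean after TBI. Of 10 catenin and junction plaque genes tested, 6 were higher and 4 lower after TBI, with a median log2 difference of 0.10. Among them, Ctnnb1, the beta-catenin bound to classical cadherin tails, was at 120 ± 9.22 FPKM in TBI and 112 ± 3.98 FPKM in sham, and the neuronal alpha-catenin Ctnna2 at 51.0 ± 9.22 FPKM in TBI and 59.1 ± 7.69 FPKM in sham (SD, n = 5 each). Of 10 atypical cadherins tested, 3 were higher and 7 lower, with a median of -0.10. Clstn1, which encodes calsyntenin-1, was at 241 ± 53.4 FPKM in TBI and 269 ± 7.07 FPKM in sham. Of 10 genes for cadherin processing and cluster regulation tested, 6 were higher and 4 lower, with a median of 0.02. Ctcf, whose protein binds clustered protocadherin promoters, was at 18.3 ± 1.10 FPKM in TBI and 19.0 ± 2.32 FPKM in sham. Of 11 signalling partners of protocadherins tested, 2 were higher and 9 lower, with a median of -0.09. Cyfip2, a subunit of the WAVE actin regulator, was at 239 ± 49.4 FPKM in TBI and 278 ± 19.7 FPKM in sham. TBI 1 was the lowest of the 10 libraries for Ctnna2, Clstn1 and Cyfip2. It stood at 35.4 FPKM for Ctnna2, with the other TBI libraries at 50.2 to 58.5 FPKM, at 150.2 FPKM for Clstn1, with the others at 244 to 283 FPKM, and at 155 FPKM for Cyfip2, with the others at 239 to 281 FPKM.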

How the data were processed

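The authors deposited 1 table of FPKM values (fragment counts scaled by transcript length and sequencing depth) with a row per locus and a column per library. Per the labels' protocols, poly-A RNA was reverse transcribed with random primers and sequenced on an Illumina HiSeq. TopHat, Bowtie, Cufflinks, Cuffdiff, TopHat2, Bowtie2 and the build rn5 are named, without roles, in the submitters' processing notes. Fragment counts are not known, so no interval rests on depth.

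Rows with the same symbol were summed per library, and rows without a symbol were kept apart. Features with a mean of at least 0.5 FPKM were tested with limma 3.58.1 in R 4.3.3 on log2(FPKM + 0.5), with a mean trend, two-sided, with Benjamini-Hochberg adjustment over all of them and a threshold of 0.05. Fold changes on this scale understate changes of low features. Intervals are at the 95% level. The code was tested on simulated data.

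Named in full were members with an unadjusted p under 0.05, members whose groups did not overlap, the 8 with the highest mean and the 6 tested ones with the widest residual SD. Members, lists and tests were chosen with earlier results of these data known. The alternatives changed the pseudocount, the filter, the scaling, the mean trend, array weights, the replicate block, the summing of rows, the test, a covariate and the libraries kept. Summing of rows that share any name, and leaving out TBI 1 and sham 4, were added after seeing the data. Promoters came from RefSeq tables of GRCr8, a different assembly from that of the FPKM table, and no coordinate was carried between the assemblies. Pairs were aligned globally (match 1, mismatch -1, gap opening -2, gap extension -0.5).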

Additional observations from a re-analysis of the deposited data

Results flagged for a closer look

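Of 34 checks for a library far from the others of its group, 6 were positive. Chance flags about 1 in 20 groups, but that rate is no yardstick here: Pcdh11x, Pcdha5 and the row of Pcdhb5, Pcdhb6 and Pcdhb9 were named for their wide spread, and the family sum holds the members' own values. Pcdh11x was at 1.76 FPKM in sham 1, and the next sham library was at 0.763 FPKM. The alpha cluster was at 18.9 FPKM in TBI 1, and the next lowest TBI library was at 25.2 FPKM. Pcdha5 was at 10.1 FPKM in sham 2, and the next sham library was at 5.04 FPKM. The row of Pcdhb5, Pcdhb6 and Pcdhb9 was at 11.2 FPKM in sham 5, and the next sham library was at 5.74 FPKM. The gamma cluster was at 174 FPKM in sham 4, and the next lowest sham library was at 202 FPKM. The sum over the family was 447 FPKM in TBI 1, and the next lowest TBI library was at 542 FPKM.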

How the results depend on the processing

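In each of 26 alternatives 0 members passed adjustment, and the family's median log2 difference ran from -0.09 to 0.06. Over all features 0 to 2 passed when single libraries were left out, 2 of them without sham 4, and 1 passed without TBI 1 and sham 4. With libraries 2 to 5 of each group 21 of 33 members had a higher mean. The share over all features was not taken for that fit, so the count cannot be read as a shift of the family. Cdh20, Cdh11, Cdh2, Pcdh8, Pcdh9 and Pcdha5 kept their sign wherever a value was had, with Cdh20 between -0.54 and -0.27, Pcdh8 between -0.17 and -0.0018 and Pcdh9 between -0.21 and -0.053. For Cdh20, whose groups do not overlap, many of the alternatives could not change the sign. The sign changed for Cdh13 with array weights (0.014), with libraries 2 to 5 (0.012) and without TBI 1 and sham 4 (0.070). For Pcdh11x it changed with array weights (0.17), the choroid plexus covariate (0.19) and libraries 2 to 5 (0.20). For Pcdhb5/b6/b9 it changed with the choroid plexus covariate (0.12), libraries 2 to 5 (0.082) and without TBI 1 and sham 4 (0.13). Cdh3 (-0.018) and Pcdhb6/b9 (-0.012) changed sign with the choroid plexus covariate, Pcdhb6/b9 (-0.030) and Pcdhb8 (-0.012) with quantile normalization, and the alpha (0.032) and gamma (0.047) clusters with libraries 2 to 5. With single libraries left out, values ran from -0.12 to 0.010 for Cdh13, -0.15 to 0.18 for Pcdh11x, -0.056 to 0.16 for Pcdh20, -0.14 to 0.20 for Pcdhb5/b6/b9, -0.28 to 0.19 for Pcdhb6/b9, -0.18 to 0.19 for Pcdhb8 and -0.14 to 0.034 for the gamma cluster. The cause of these changes was not tested. Same-numbered TBI and sham libraries gave no sign of pairing: their deviations correlated at -0.10, -0.38, 0.04, -0.10 and 0.31, and 1 of 10 libraries matched its own number best. With so few libraries this check cannot exclude pairing. With the replicate block 0 members passed, and Cdh20 had an adjusted p of 0.963 in limma's test. Pcdh11x had no value at a mean of at least 1 FPKM, Cdh13 and Pcdh9 none with rows kept apart, and Pcdha5 and Pcdhb6/b9 none with rows of a shared name summed.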

Other observations

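4 members were summed from 2 rows of the table each, and the rows are described as values, picked after they were seen. The lesser row of Pcdh17 stood at 1.64, 8.05, 2.70, 6.95 and 4.21 FPKM in TBI 1 to TBI 5, against 5.57, 4.99, 3.52, 2.94 and 2.62 FPKM in sham 1 to sham 5. The main row of Pcdh17 stood at 9.12, 11.2, 10.2, 13.4 and 9.01 FPKM in TBI 1 to TBI 5, against 15.7, 5.84, 10.6, 9.96 and 9.91 FPKM in sham 1 to sham 5, so the share of the lesser row differed between libraries of both groups. Pcdh7 was divided more evenly, with 5.11 to 9.58 FPKM in TBI and 5.11 to 8.60 FPKM in sham in the first row, and 7.21 to 9.39 FPKM in TBI and 6.63 to 10.3 FPKM in sham in the second. The highest 4 libraries of the first Pcdh7 row and of the lesser Pcdh17 row were the same, TBI 2, TBI 4, sham 1 and sham 2. In Pcdh9 the lesser row was at 0 in TBI 1, TBI 4, TBI 5, sham 3 and sham 5 and at most 1.71 FPKM elsewhere, beside a main row at 24.1 to 34.5 FPKM in TBI and 28.4 to 33.2 FPKM in sham. In Cdh13 the lesser row was at 0.275 to 1.27 FPKM in TBI and 0.284 to 1.68 FPKM in sham, beside a main row at 25.9 to 35.2 FPKM in TBI and 28.3 to 38.6 FPKM in sham. Whether the rows stand for different transcripts was not tested.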
